A study of Mus musculus with 8 samples.

Results

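The genes described here encode 10 subunits of the SWI/SNF chromatin remodelling complexes: Smarca4, Smarca2, Smarcb1, Smarcc1, Smarcc2, Smarcd1, Arid1a, Arid1b, Arid2 and Pbrm1. They were chosen by name, with earlier results of these data known. A peak belonged to a gene when its midpoint lay in the gene body on the strand given for the peak (mm10, GENCODE M21). The 10 genes held 1296 of the 725659 distinct peaks placed in genes. Of these, 716 were called in replicate 1 and 582 in replicate 2. The list of peaks shared by both replicates held 24 pairs in these genes, and 0 of its intervals lay outside the lists of the single replicates.

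The peaks come from iCLIP of RBM45, an RNA-binding protein, in mHiPPoE-2, a line of transformed mouse neurons of the hippocampus from strain Crl:CFW(SW)-024. The cells of the groups used here were wild type (WT), carried FLAG-HA-tagged mouse RBM45 delivered by lentivirus, and were precipitated with an antibody against the HA tag. The peaks are therefore those of a tagged protein added to cells, and not of RBM45 from its own gene. The series has 8 libraries in 4 groups of 2, namely CLIP and size-matched input from WT cells and from Mettl3 KO cells, and peak lists of WT CLIP are used here. Nothing in the labels says that replicates 1 and 2 came from separate cultures.

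SWI/SNF complexes use ATP to move or evict nucleosomes and so change access to promoters and enhancers. In the canonical BAF and the PBAF forms an ATPase, either Smarca4 (BRG1) or Smarca2 (BRM), sits on a shared core. This core includes Smarcb1, Smarcc1, Smarcc2 and Smarcd1. Arid1a or Arid1b marks the canonical BAF form of the complex, whereas Arid2 and Pbrm1 belong to the PBAF form. In the nervous system the subunit makeup changes as progenitors become neurons, and mutations in several of these genes cause neurodevelopmental disorders.

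Each deposited peak carries a fold over local background and a −log10 p from the authors' peak caller. Under the formulas of MACS2 these values fix a pileup height, which is the number of overlapping fragments at the summit, and a background level. A whole-number height fitted both values, within 0.001 in −log10 p, for 99.9995% of replicate 1 peaks and 99.9994% of replicate 2 peaks, and for every peak in the 10 genes. Height 1, a single fragment at the summit, passed the p threshold of 0.005 only where the background was at most 0.103 in both replicates. Peaks of height 1 therefore enter a count of peaks per kb only where the background is low. Some of them were wider than the least width of 30 bases, and these may hold more than 1 fragment without overlap. In all genes 76.6% of replicate 1 peaks and 69.5% of replicate 2 peaks had height 1, against 67.5% (483 of 716) and 46.4% (270 of 582) in the SWI/SNF genes. Heights of 3 or more made up 8.39% and 12.6% of peaks in all genes, and 13.7% and 30.2% in the SWI/SNF genes. Both densities are given below for this reason. The sources used here do not say whether a fragment was a read or a molecule, nor which library gave the background.

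Smarca4 and Smarca2 encode the alternative ATPases, and their peaks differed in height more than in number. Smarca4 (chr9:21616169-21704230, plus strand) held 52 peaks in replicate 1 and 39 in replicate 2, or 0.590 and 0.443 peaks per kb. Smarca2 (chr19:26605050-26778322, plus strand) held 48 and 81 peaks, or 0.277 and 0.467 per kb. Smarca4 was thus the denser gene in replicate 1, where the Poisson 95% intervals did not overlap (0.441 to 0.774 and 0.204 to 0.367), whereas in replicate 2 they did (0.315 to 0.605 for Smarca4 and 0.371 to 0.581 for Smarca2). At height 3 or more Smarca4 kept 9 and 19 peaks, and Smarca2 kept 2 and 0. In Smarca2 83.3% and 88.9% of peaks had height 1, against 63.5% and 12.8% in Smarca4. The median background under Smarca2 peaks was 0.0246 and 0.0404, equal to 3 digits to the lowest level under any peak of those libraries, and under Smarca4 peaks it was 0.0873 and 0.235. The part of the background in this difference was not tested.

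Each ATPase gene had 2 shared peaks, all of them intronic. In Smarca4 they lay in intron 2, with folds of 3.62 and 2.63 in replicates 1 and 2, and in intron 29, with folds of 3.63 and 2.38. The shared peak of Smarca2 with the highest lower fold lay in intron 23, with folds of 1.95 and 1.92. Both Smarca2 pairs were of height 1 in both replicates, and neither Smarca4 pair was.

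The core subunit genes had no shared peak. Smarcb1 (chr10:75896769-75921617, minus strand), whose product anchors the complex to the nucleosome, held 20 peaks in replicate 1 and 14 in replicate 2 (0.805 and 0.563 per kb). Smarcc1 (chr9:110117708-110240178, plus strand), one of a pair of scaffold paralogues, held 46 and 25 peaks (0.376 and 0.204 per kb). Its paralogue Smarcc2 (chr10:128459248-128490482, plus strand) held 13 and 18 peaks (0.416 and 0.576 per kb). The density was thus higher in replicate 1 for Smarcb1 and Smarcc1 and higher in replicate 2 for Smarcc2, with overlapping intervals for Smarcb1 and Smarcc2 but only narrowly for Smarcc1 (0.275 to 0.501 and 0.132 to 0.301). Smarcd1 (chr15:99702129-99713991, plus strand), which links the core to transcription factors and is the shortest of the 10 genes at 11.9 kb, held 7 and 3 peaks. At height 3 or more Smarcb1 kept 0 and 5 peaks, Smarcc1 10 and 15, Smarcc2 4 and 5, and Smarcd1 1 and 3. Peaks of height 1 made up 75% and 28.6% of Smarcb1 peaks.

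With 14, 25, 18 and 3 replicate 2 peaks, a count of 0 shared peaks in the core genes left wide limits. The upper Wilson 95% bounds of the shared share were 21.5% for Smarcb1, 13.3% for Smarcc1, 17.6% for Smarcc2 and 56.1% for Smarcd1, which cover counting error only. Their highest folds were also low, from 2.74 in Smarcd1 to 4.46 in Smarcc1 in replicate 1, and from 3.59 in Smarcd1 to 5.06 in Smarcc1 in replicate 2. No core gene had a peak above height 6.

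Arid1a and Arid1b encode the alternative DNA-binding subunits of BAF, and the paralogues differed in number of peaks in both replicates and in height mainly in replicate 2. Arid1a (chr4:133679008-133756769, minus strand) held 44 peaks in each replicate, or 0.566 per kb in both. Of these, 6 had a height of 3 or more in replicate 1 and 37 in replicate 2, where no peak had height 1. At that height Arid1a was the densest of the 10 genes in replicate 2 (0.476 per kb) and ranked at 99.6% among the 500 genes nearest in length, but at 79.8% in replicate 1 (0.0772 per kb). The median background under Arid1a peaks was 0.0943 in replicate 1 and 0.259 in replicate 2. In replicate 2 the lowest was 0.113, above the limit of 0.103 for height 1. The part of the background in these heights was not tested. The strongest Arid1a peak of each replicate was the same site in intron 1. It spanned chr4:133741186-133741299 with fold 7.86 and height 8 in replicate 1, and chr4:133741231-133741299 with fold 8.69 and height 11 in replicate 2. The second shared Arid1a peak, also in intron 1, had folds of 2.76 and 4.05.

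Arid1b (chr17:4994332-5347656, plus strand) had the most peaks, 340 in replicate 1 and 300 in replicate 2. It is also the longest of the 10 genes, at 353 kb, and its density of 0.962 and 0.849 per kb was the highest of the 10 in both replicates. That rank depended on removing repeated lines: with every deposited line counted, the mean density of the replicates was 0.906 per kb in Arid1b, below Smarca4 (1.55), Smarcc2 (1.49) and Smarcb1 (1.37). The added lines repeat intervals already counted. Without them the means were 0.906 in Arid1b, 0.517 in Smarca4, 0.496 in Smarcc2 and 0.684 in Smarcb1. Against the 8 subunit genes other than Arid2, pooled, the density was 2.01 times as high in replicate 1 (95% interval 1.71 to 2.35, adjusted p = 7.3e-18, exact binomial test of rates, two-sided) and 2.18 times in replicate 2 (1.84 to 2.59, adjusted p = 1.2e-18). With every line counted the ratios were 1.30 and 1.32 (adjusted p = 0.00064 for each, exact test). Because that setting counts the same interval more than once, its p-values are no test of the number of peaks. All p-values of this kind were adjusted by Benjamini-Hochberg over the 8 tests on Arid2 and Arid1b. Peaks of 1 gene are not independent, so these p-values, which describe 2 libraries, may be too small. The tests also pool the 8 genes, so their intervals and p-values leave out the spread between genes. Densities of the 8 ran from 0.277 (Smarca2) to 0.805 per kb (Smarcb1) in replicate 1. In replicate 2 they ran from 0.204 (Smarcc1) to 0.576 (Smarcc2).

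The lead of Arid1b was smaller among taller peaks, but not under every limit. Height 1 made up 74.4% of its peaks in replicate 1 and 59.3% in replicate 2. At height 2 or more its density was 1.56 times that of the 8 others in replicate 1 (1.15 to 2.095, adjusted p = 0.0074, exact test) and 1.42 times in replicate 2 (1.11 to 1.81, adjusted p = 0.0075, exact test). At height 3 or more it held 34 and 58 peaks, and its density was 1.69 times that of the 8 others in replicate 1 (1.03 to 2.78, adjusted p = 0.067, exact test) and 1.10 times in replicate 2 (0.782 to 1.55, adjusted p = 0.74, exact test). When only peaks whose −log10 p was at least 5 were kept, the ratio was 2.52 in replicate 1 (1.41 to 4.57, adjusted p = 0.0035, exact test) and 1.44 in replicate 2 (0.773 to 2.67, adjusted p = 0.36, exact test). The median background under Arid1b peaks was 0.0693 and 0.0856, against 0.0832 and 0.146 in the 8 others. Among the 500 genes nearest in length, of 250 to 496 kb, Arid1b ranked at 96.8% and 93.6% for all peaks and at 93.6% and 94.8% for height 3 or more.

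**Figure D1:**
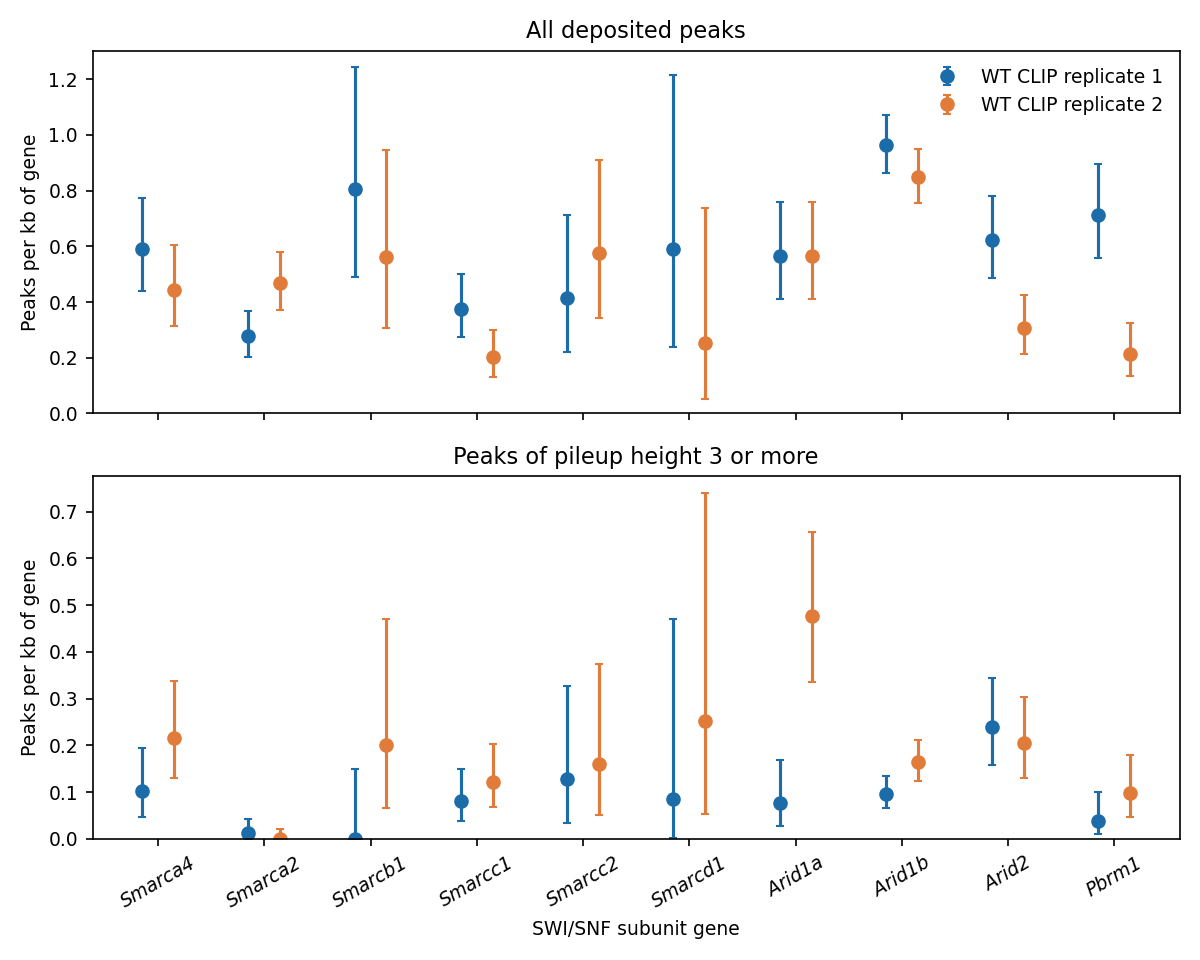
Peaks per kb of gene body in each SWI/SNF subunit gene, for all deposited peaks (upper panel) and for peaks of pileup height 3 or more (lower panel), with points for WT CLIP replicates 1 and 2 and bars for exact Poisson 95% intervals. Arid1b is highest for all peaks at 0.962 and 0.849, and at height 3 or more the highest values are those of Arid2 in replicate 1 (0.238) and Arid1a in replicate 2 (0.476).

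**Figure D2:**
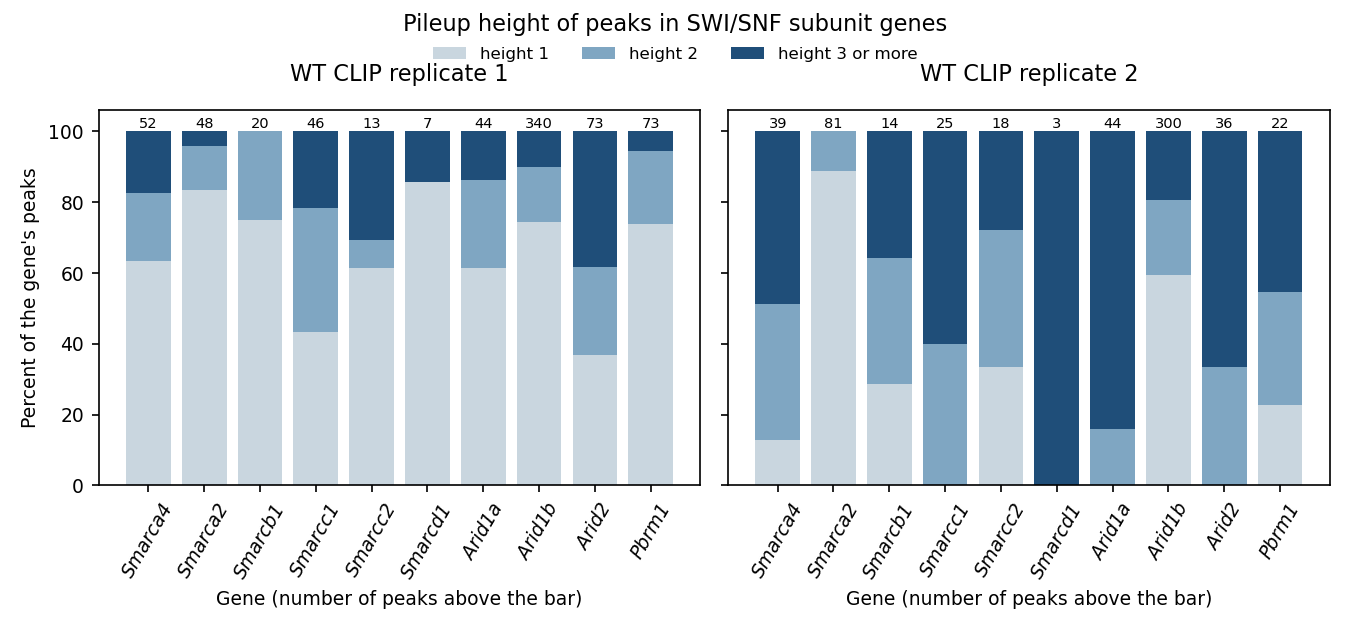
Percent of each gene's peaks of pileup height 1, 2 and 3 or more in WT CLIP replicate 1 (left) and replicate 2 (right), with the number of peaks above each bar. Peaks of height 1 make up 88.9% of Smarca2 peaks in replicate 2 and 0% of those of Arid1a, Arid2, Smarcc1 and Smarcd1. Under every replicate 2 peak of Arid1a, Arid2 and Smarcd1 the background was above 0.103, the highest level at which height 1 passed.

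The 12 shared peaks of Arid1b were spread over 12 sites, from 31.3 to 335 kb downstream of the gene start, in introns 1, 2, 3, 4, 5, 8 and 15. Their folds ran from 1.85 to 2.91 in replicate 1, with a median of 1.93, and from 1.82 to 3.84 in replicate 2, with a median of 1.87. In 8 of the 12 both peaks had height 1, and in 2 others the replicate 2 peak alone did. Over all genes 37.3% of shared pairs had height 1 in both replicates. The pair with the highest lower fold lay in intron 2, at chr17:5080071-5080137 in replicate 2, with folds of 2.84 and 2.79. Another, in intron 4 at chr17:5171483-5171512, had folds of 2.69 and 3.84.

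The tallest Arid1b peak was not shared. It lay in intron 4 at chr17:5194735-5194908 in replicate 1, 174 bases wide, with fold 12.9 and height 13. The nearest replicate 2 peak was 67 bases away, with fold 3.28 and height 3. The share of replicate 2 peaks that were shared was 4% in Arid1b (12 of 300) and 2.44% in the 8 others (6 of 246), an odds ratio of 1.67 (0.568 to 5.49, adjusted p = 0.39, Fisher's exact test, two-sided). Over all genes the share was 4.77% (16294 of 341646), above both.

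Arid2 and Pbrm1 encode the subunits that define PBAF, Arid2 as a DNA-binding subunit and Pbrm1 as a reader of acetylated histones through its bromodomains. Pbrm1 (chr14:31019138-31121592, plus strand) held 73 peaks in replicate 1 but 22 in replicate 2 (0.713 and 0.215 per kb), the widest gap between replicates among the 10 genes as a ratio. None of its peaks was shared, and at height 3 or more it kept 4 and 10. Arid2 (chr15:96287518-96404992, plus strand) held 73 and 36 peaks (0.621 and 0.306 per kb). Against the 8 others its density was 1.30 times in replicate 1 (0.990 to 1.68, adjusted p = 0.088, exact test) and 0.787 times in replicate 2 (0.539 to 1.12, adjusted p = 0.25, exact test), neither of which passed. With every deposited line counted the ratios were 0.837 (adjusted p = 0.23, exact test) and 0.478 (0.330 to 0.673, adjusted p = 1.6e-05, exact test), so that the replicate 2 density then passed as lower. That setting left the mean Arid2 density at 0.464 per kb and counted repeated intervals of other genes more than once. Its p-values are therefore no test of the number of peaks.

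In replicate 1 Arid2 was the densest of the 10 genes in tall peaks. Of its peaks 28 in replicate 1 and 24 in replicate 2 had a height of 3 or more, or 0.238 and 0.204 per kb, which ranked at 99% and 96.2% among the 500 genes nearest in length. At that height its density was 4.18 times that of the 8 others in replicate 1 (2.46 to 7.05, adjusted p = 7.3e-07, exact test) and 1.37 times in replicate 2 (0.839 to 2.17, adjusted p = 0.26, exact test). In replicate 2 Arid1a (0.476), Smarcd1 (0.253) and Smarca4 (0.216 per kb) were denser than Arid2. The median background under Arid2 peaks was 0.0970 and 0.259, against 0.0832 and 0.146 in the 8 others. In replicate 2 the lowest under Arid2 peaks was 0.187, above the limit of 0.103 for height 1. The part of the background in these densities was not tested. The limits on height were added after the data were seen. The ratio in replicate 1 was 3.34 without the run of peaks described next (adjusted p = 0.00022, exact test).

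The Arid2 peaks of highest fold stood in 1 place. Of the 6 shared pairs of Arid2, 5 lay within 562 bases of intron 3 (chr15:96331215-96331776), with midpoints 42123 to 42598 bases downstream of exon 3. Replicate 1 had 3 peaks there, with folds of 9.16, 5.48 and 15.6 and heights of 9, 5 and 16. Replicate 2 had 5, with folds of 3.35, 8.38, 2.52, 6.35 and 5.05 and heights of 3, 9, 2, 7 and 5. The tallest replicate 1 peak was 253 bases wide (chr15:96331504-96331756) and was paired with 3 separate peaks of replicate 2, so that the 6 pairs used 4 replicate 1 peaks and 2 sites. The tallest peak of replicate 1 and that of replicate 2 were different peaks of the run.

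The run was wider in replicate 1. There 13 peaks followed each other within 1696 bases, 1.44% of the gene, among them an unshared peak of fold 6.37 and height 6 just upstream of the shared ones. Elsewhere in Arid2 the highest fold was 4.45 in replicate 1 and 4.42 in replicate 2. The sixth shared pair lay in intron 5, at chr15:96357541-96357570 in replicate 2, with folds of 2.66 and 3.23.

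**Figure D3:**
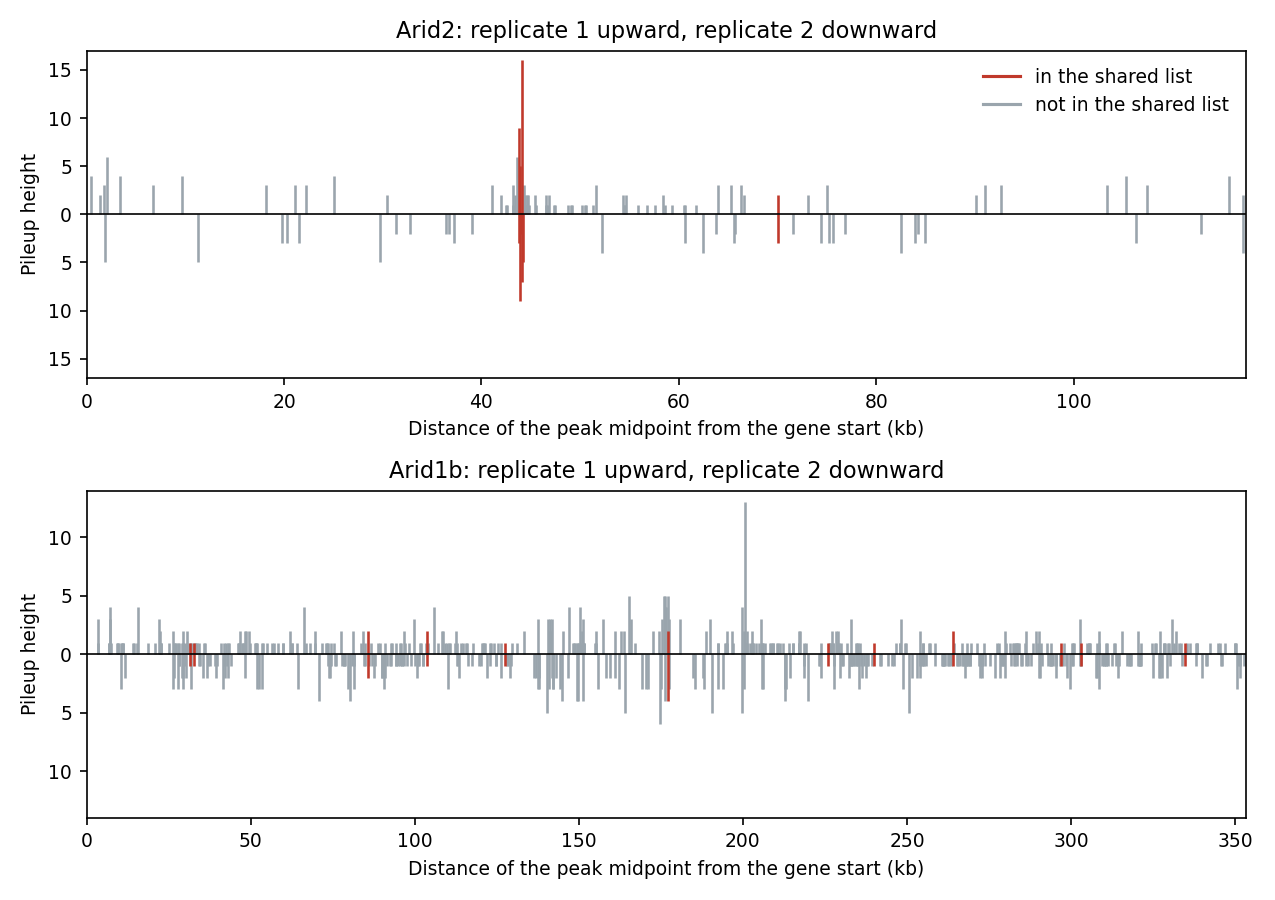
Pileup height of each peak against the distance of its midpoint from the gene start in kb, for Arid2 (top) and Arid1b (bottom), with replicate 1 drawn upward and replicate 2 downward and peaks of the shared list in red. The tallest Arid2 peaks of both replicates stand together about 44 kb into the gene, and the shared Arid1b peaks are spread along it at heights of 4 or less.

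**Figure D4:**
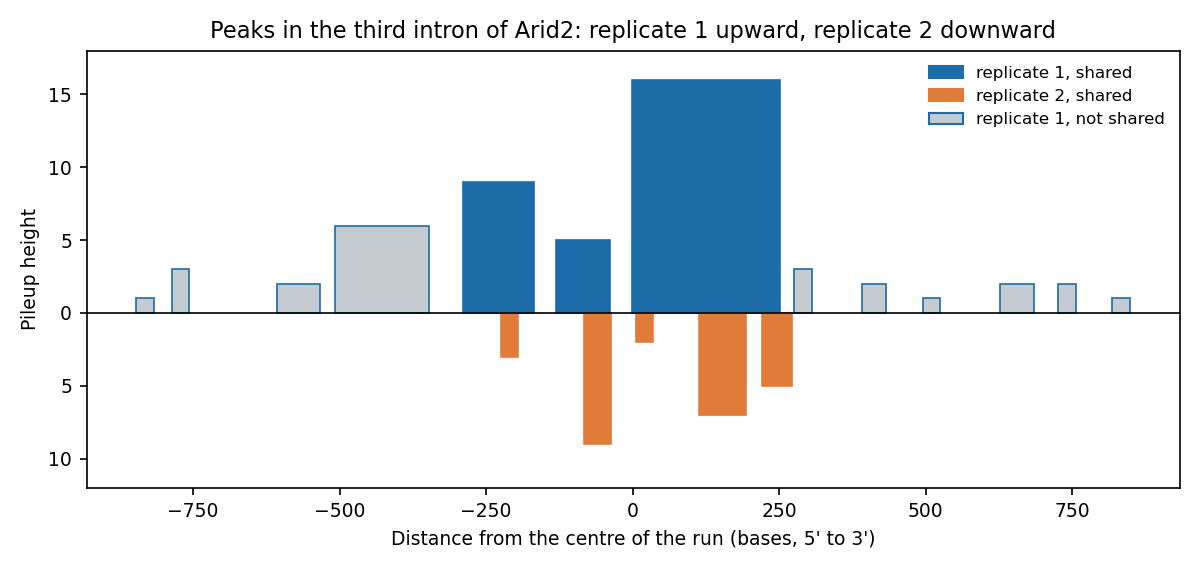
Peaks of the run in intron 3 of Arid2, as bars from start to end by distance from the centre of the run in bases, with pileup height upward for replicate 1 and downward for replicate 2. The 5 replicate 2 peaks fall on 3 replicate 1 peaks, the tallest of which has height 16.

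In Arid2 16.7% of replicate 2 peaks were shared (6 of 36, Wilson 95% interval 7.87% to 31.9%), against 2.44% in the 8 others (6 of 246) and 4.77% in all genes. The odds ratio was 7.90 (1.98 to 31.6, adjusted p = 0.0030, Fisher's exact test, two-sided). This rests on the run in intron 3, since without it 1 of 31 replicate 2 peaks was shared and the odds ratio was 1.33 (0.0281 to 11.6, adjusted p = 0.60, Fisher's exact test). The 6 shared peaks stood at 2 sites and are not independent, and the genes were chosen with earlier results known. The p-value with the run, from Fisher's exact test, may therefore be too small. By replicate 1 peaks the share was 5.48% (4 of 73) in Arid2 and 1.98% (6 of 303) in the 8 others.

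Across all 15995 genes with peaks in both replicates, Arid2 had an odds ratio of 3.92 against all other genes (1.33 to 9.57), with p = 0.0073 and an adjusted p of 0.42 by Fisher's exact test. The odds ratio was 1.31 (0.348 to 3.52) with replicate 1 peaks as the denominator and 1.91 (0.558 to 5.30) at height 3 or more, each with an adjusted p of 1 by Fisher's exact test. Arid1b had 0.816 (0.417 to 1.45, adjusted p = 1 by Fisher's exact test). None of the 10 genes passed the adjusted threshold of 0.05, and Arid2 alone had an unadjusted p under it. The same test called 0.563% of all genes higher (90 genes) and 0.00625% lower (1 gene). At least 1 shared peak was found in 5 of the 10 genes, Arid1b, Arid2, Arid1a, Smarca4 and Smarca2, against 38.7% of all genes tested. A shared pair with height 3 or more in both replicates was found in 2 of the 10, with 4 pairs in Arid2 and 1 in Arid1a, against 11.3% of all genes tested. The 10 genes were long, with a median of 95.3 kb, where that of all genes tested was 27.9 kb. Among the 500 genes nearest in length to Arid2, 58.8% had a shared peak.

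**Figure D5:**
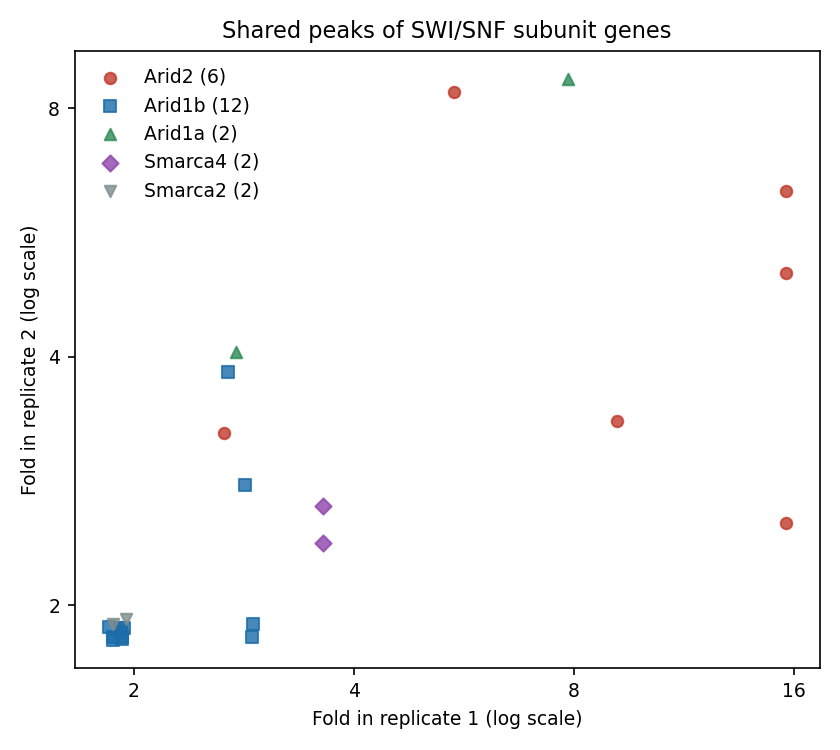
Fold in replicate 2 against fold in replicate 1, both on log scales, for the 24 shared pairs of SWI/SNF subunit genes, coloured by gene with the number of pairs in brackets. Most Arid1b and both Smarca2 pairs lie below fold 2 in both replicates, and pairs of Arid2 and Arid1a hold the highest folds in both.

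Most peaks of these genes were intronic. In replicate 1, 670 of 716 peaks were in introns, 34 in coding sequence, 11 in 3' UTRs and 1 in a 5' UTR, and in replicate 2, 538 of 582 were in introns, 30 in coding sequence and 14 in 3' UTRs. The exonic share was 6.42% (Wilson 95% interval 4.85% to 8.46%) and 7.56% (5.68% to 10.00%), against 9.88% and 9.17% in all genes. Arid1b, with 340 of the 716 and 300 of the 582 peaks, weighed most in it, at 2.06% and 2.67%. In Arid2 the share was 6.85% and 19.4%. In the 8 others it was 11.2% and 11.8%, above that of all genes. All 24 shared pairs were intronic in the basic gene set.

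The exonic share differed between the genes. In Arid1b 2.34% of peaks were exonic (15 of 640), against 11.5% in the 8 others (63 of 549), an odds ratio of 0.185 (0.0968 to 0.334, adjusted p = 3.0e-10, Fisher's exact test, two-sided). Peaks of both replicates were pooled here, so a site called in both counted more than once. The p-value, from Fisher's exact test, may therefore be too small. Exons make up 3.24% of Arid1b, and from 4.21% of Smarca2 to 27.9% of Smarcd1 among the 8 others, so that the contrast also compares gene structures. In Arid2 11% of peaks were exonic (12 of 109, odds ratio 0.954, 0.451 to 1.87, adjusted p = 1, Fisher's exact test), with 6.85% in replicate 1 and 19.4% in replicate 2 (7 of 36), where exons make up 7.47% of the gene. In Smarcc2 30.8% (4 of 13) and 38.9% (7 of 18) were exonic, where exons make up 16.5%.

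Exonic peaks whose intervals overlapped between the replicates by too little to enter the shared list were found in coding sequence of 2 genes, Smarcb1 and Pbrm1. In exon 2 of Smarcb1 a replicate 1 peak of fold 2.63 and a replicate 2 peak of fold 3.18 had 2 bases in common (chr10:75916778-75916835, minus strand). In exon 5 of Pbrm1 peaks of fold 1.89 and 3.50 had 6 bases in common (chr14:31030860-31030928, plus strand). One shared Arid1b peak, intronic in the basic set, lies in a retained-intron transcript of the comprehensive set (chr17:5097928-5097979, plus strand), with folds of 2.90 and 1.83 and 30 bases in common. In 3' UTRs, 1 such pair each was found in Smarcc2 and Arid2. The coding and retained-intron sites, at which peaks of both replicates met on transcript sequence, are shown 5′ to 3′ as DNA letters of the GENCODE M21 transcripts (GRCm38), from the start of the first to the end of the last interval, with capitals for the bases common to both replicates.
Smarcb1: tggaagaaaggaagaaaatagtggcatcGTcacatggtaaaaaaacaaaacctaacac
Pbrm1: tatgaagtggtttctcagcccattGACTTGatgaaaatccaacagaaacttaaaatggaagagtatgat
Arid1b: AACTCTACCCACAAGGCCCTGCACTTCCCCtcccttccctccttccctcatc

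The strongest coding peaks of Arid1a, Smarcc1 and Arid2 were each called in a single replicate. That of Arid1a, in exon 18 (chr4:133685338-133685372, minus strand), had fold 4.93 and height 5 in replicate 2. That of Smarcc1, in exon 2 (chr9:110135576-110135605, plus strand), had fold 4.49 and height 4 in replicate 2. That of Arid2, in exon 2 (chr15:96287929-96287958, plus strand), had fold 4.26 and height 4 in replicate 1. These were the coding peaks with the highest folds of the 10 genes, and they are printed with no letter marked.
Arid1a: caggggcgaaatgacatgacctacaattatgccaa
Smarcc1: atgcagatgctcctaccaataaaacactag
Arid2: aggagctggatcttcacgggctctacacca

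GAC, a sequence that RBM45 is known to bind, was counted on the strand of the gene only. Among the coding peaks of single replicates it occurred 2 times in the Arid1a sequence and in neither of the others. Among the sites where both replicates met it occurred 1 time, in Pbrm1, within the bases common to both. Shares were taken over peaks of the least width, 30 bases, that lay wholly in 1 exon of the comprehensive set. GAC was present in 33.3% (12 of 36, Wilson 95% interval 20.2% to 49.7%) of such replicate 1 peaks and 23.1% (9 of 39, 12.6% to 38.3%) of such replicate 2 peaks of the 10 genes. In all genes the shares were 30.7% and 31.0%, inside both intervals. TTTTT was present in 5.56% and 5.13%, against 5.34% and 4.97% in all genes.

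Other genes of the complexes and their relatives were counted in the same way. Of 21 other SWI/SNF genes, 20 had peaks in both replicates, 10 had a shared peak and 0 passed the test over all genes. The most shared peaks there were 3 in Bicral and 2 each in Brd9 and Smarcd3. Of 23 genes of other remodellers, all had peaks in both replicates, 12 had a shared peak and 1 passed. This was Baz1b, a subunit of the WICH complex, with 6 of 19 replicate 2 peaks shared (adjusted p = 0.040, Fisher's exact test), while Baz2b had 9 of 109 and Chd9 7 of 127.

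Of 12 genes with an ARID domain outside SWI/SNF, 11 had peaks in both replicates, 8 had a shared peak and 1 passed. This was Arid5b, with 16 of 114 replicate 2 peaks shared (adjusted p = 0.030, Fisher's exact test), followed by Arid4b with 5 of 45 and Kdm5d with 5 of 41. The share of genes with a shared peak was thus 50% in the 10 subunit genes, 50% in the other SWI/SNF genes, 52.2% in the other remodellers and 72.7% in the ARID-domain genes, against 38.7% of all genes tested, with no correction for gene length.

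The label of the cells could not be checked from peak lists, which do not measure expression. All 7 neuron marker genes had peaks in both replicates, as did 2 of 4 neural progenitor, 4 of 5 astrocyte, 3 of 5 oligodendrocyte, 4 of 5 microglia and 3 of 5 endothelial marker genes. These counts have no share over all genes beside them, were not corrected for gene length and do not tell cell types apart. The endothelial marker Flt1 held 138 and 153 peaks with 12 shared, and the neuron marker Map2 held 212 and 94 with 2 shared.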

How the data were processed

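The series measured RNA of iCLIP and size-matched input libraries, and the 3 peak lists of WT CLIP were used (replicate 1, replicate 2 and their shared list). The submitters' processing notes name mm10, the peak caller MACS2 2.1.1.20160309, the aligner Novoalign 3.09.00, and HOMER 4.11.1, deepTools 3.2.1 and bedtools 2.25.0, and featureCounts 1.6.3 made a deposited count table. Their settings were not stated in these sources. Peak names carry MACS2 and p 0.005, and peaks were called per library. In 100% of lines of all 3 lists the deposited score was the rounded-down product of 10 and the −log10 p. The deposited fold is the authors' ratio of pileup to background, each with a pseudocount of 1 under the formulas of MACS2, and the deposited −log10 p is the peak caller's own. All are the peak's own values. Lines that repeated an interval were removed (267229 of 654978 and 237090 of 581790). The shared list pairs peaks that overlap by at least 50% of the replicate 2 peak. No source used here states how peaks got their strand, which may come from the annotation. The 16 library columns of the count table and its summary match no sample and were not used, so no comparison with input or Mettl3 KO was made. Depth per library is unknown.

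Peaks were placed by midpoint in GENCODE M21 gene records, and exons came from the basic set. The motif shares instead used peaks wholly inside an exon of the comprehensive set. Reference sequence came from GENCODE M21 transcripts, so intronic sequence was not used here. Peaks per kb carry exact Poisson 95% intervals and shares Wilson 95% intervals, both covering counting error only. Densities of Arid2 and Arid1b were compared with the 8 other genes by exact binomial tests and shares by Fisher's exact test, adjusted by Benjamini-Hochberg over 8 tests, and each gene's shared share by Fisher's exact test over 15995 genes. Ranks are among the 500 genes nearest in length. The code was tested on simulated data, with scipy 1.17.1, numpy 2.4.6, pandas 2.3.3 and matplotlib 3.10.9 under Python 3.11.15. All 10 genes were named, in the other lists the 3 genes with most shared peaks, and single peaks by the highest lower fold in the shared list, plus the tallest peaks and coding peaks, added after values were seen. The members and lists were chosen with earlier results of these data known.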

Additional observations from a re-analysis of the deposited data

How the results depend on the processing

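Depth is unknown, and low heights limit all densities. No paired analysis was possible because peak lists of WT CLIP alone were used, so that no 2 groups share replicate numbers. The limits on height, the sites within 1000 bases and the removal of the Arid2 run were chosen after seeing the data, as was the limit on −log10 p for the ratios. The cause of a change was not tested, except where fewer peaks enter by construction. The median density over the 10 genes, 0.480 peaks per kb, was 0.0451 at a −log10 p of 5 or more, 0.137 at height 3 or more, and 0.455 to 0.590 in single replicates. Midpoint or any overlap and transcript span left the densities of all 10 genes within the spread of the replicates. Ignoring strand left each of these densities unchanged to every digit. As strand may come from the annotation, that setting is no check on them. At a −log10 p of 5 or more, the Arid2 density ratios were 3.42 and 1.03 and its shared odds ratio 15.1 (Fisher's exact test, adjusted p = 0.053), and Arid1b had density ratios of 2.52 and 1.44, a shared odds ratio of 0 and an exonic one of 0.117. With every deposited line counted, the Arid2 ratios were 0.837 and 0.478 (the second passing as lower) and the Arid1b ratios fell to 1.30 and 1.32, with 3 genes then denser than Arid1b. This setting counts repeated intervals more than once. At height 2 or more Arid2 had density ratios of 2.47 and 1.26 and an exonic odds ratio of 1.01, Arid1b had density ratios of 1.56 and 1.42 and a shared odds ratio of 0.626, and the median density was 0.284. At height 3 or more the Arid2 ratios were 4.18 and 1.37, with an exonic odds ratio of 1.17, and for Arid1b 1.69 and 1.10, with a shared odds ratio of 0.808. Over intronic length Arid2 had 1.36 in replicate 1 (adjusted p = 0.047, exact test), and against the median of the 8 others Arid1b had 1.665 in replicate 1. Without the run of Arid2 peaks, its shared odds ratio was 1.33 and its exonic one 1.17, and at height 3 or more without the run the density ratios were 3.34 and 1.16 and the odds ratios 2.40 (shared) and 1.53 (exonic). Its exonic odds ratio ran from 0.582 to 1.80 in single replicates. Shared peaks by 1 base of overlap numbered 50 (Arid1b 28), by reciprocal overlap of at least 50% 14 (Arid2 1, odds ratio 2.31), and by a −log10 p of 5 or more in both 4 (Arid2 3, Arid1b 0). Arid2 had 2 shared sites, and 1 shared peak without the run. Over all genes, Arid2 had odds ratios of 1.31 by replicate 1 peaks and 1.91 at height 3 or more, Arid1b had an odds ratio of 1.18 by 1 base of overlap, and 38 genes were higher by replicate 1 peaks and 28 at height 3 or more, against 90. The 10 genes had 0 calls under each of these. With exons of the comprehensive set the exonic share was 8.94%.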
